A study of Mus musculus with 4 samples.

Results

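The DNA replication genes described here were 51 genes taken from a list of the machinery that copies chromosomal DNA: origin licensing, the replicative helicase, polymerases, the clamp and its loader, nucleotide supply and chromatin assembly. They were listed by function, with earlier results of these data known, so counts over them are no independent test. A gene was found on the array by an exact match of its symbol in the platform annotation. Of the 51 genes, 50 were found, among 18193 genes with a named probe set, and Chaf1a was not analysed here. RNA came from mammary tissue of mice labelled STAT5 WT (wild type) or STAT5 KO (knockout), with 2 arrays per genotype, each from its own mouse per the design text. STAT5 is the transcription factor, encoded by the neighbouring genes Stat5a and Stat5b, through which prolactin acts on the mammary gland. The design text gives a time of 6 days but names no event from which it is counted. The series title names STAT5A, but the labels do not say whether Stat5a, Stat5b or both were deleted, nor give the strain, the age, the deleted part or any transgene, and list no treatment. All 4 samples share the tissue and the TRIzol extraction.

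A chromosome is copied once per cell cycle. In G1 the origin recognition complex, with Cdc6 and Cdt1, loads the MCM helicase onto DNA, a step called licensing. In S phase the kinase of Cdc7 and Dbf4, with Cdc45 and the GINS complex, turns that helicase into the moving engine of the fork, where the polymerases, the sliding clamp Pcna and its loader follow. Many of these genes are switched on by E2F transcription factors shortly before S phase, so their transcripts mark cycling cells, whereas several subunits of the origin recognition complex are made at a steadier level. In the mammary gland, the epithelium multiplies in early pregnancy as alveoli form. In whole tissue, fewer cycling cells and less RNA per cell cannot be told apart.

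Median signals over all probe sets ran from 121 to 131. The arrays had been scaled to a common mean, so these medians do not check array or RNA quality. The epithelial keratin gene Krt18 gave 5823 and 6523 in WT and 6354 and 9118 in KO, so epithelial RNA was present on each. Other epithelial markers, given below, differed in direction, many of them lower in KO, so Krt18 alone does not measure the epithelial share. Stat5a read 2307 and 2061 in WT against 1836 and 861 in KO, and Stat5b 1522 and 1506 against 1069 and 712. Neither passed the test used here (limma adjusted p = 0.246 and 0.102), and since the deleted part is not named in the labels, these probe sets may not check the genotype. Signals are deposited MAS5 intensities, which compare a probe set between arrays but not one gene with another. Differences are KO minus WT on the scale log2(signal + 16), and a gene passed at a Benjamini-Hochberg adjusted p under 0.05 over all 22519 tested probe sets. No detection calls were used, so whether a dim signal exceeds background is unknown.

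Transcripts of the replication machinery were lower in the KO glands. Among the 48 members bright enough to be tested, 15 fell, 0 rose and 33 missed the threshold, against 1.36% of all tested genes called lower and 1.21% called higher. The 15 were Mcm3, Mcm5, Mcm6, Cdc6, Cdt1, Gmnn, Cdc7, Prim1, Rpa2, Lig1, Rrm2, Tk1, Chaf1b, Uhrf1 and E2f1. At an unadjusted p under 0.05 the same test gave 35 members lower and 0 higher, against 10.8% of all tested genes lower and 10.4% higher. Both KO arrays lay below both WT arrays for 41 of the 48 tested members, a pattern seen in 27.5% of tested genes. The median log2 difference was -0.87 over the tested members and -0.86 over all 50, beside -0.0099 over all tested genes. Expressed as the KO mean over the WT mean, 10 members stood under 40%, 20 between 40 and 60%, 9 between 60 and 80% and 11 at 80% or more. The members' differences ran from -1.84 for Uhrf1 to 0.14 for Orc3. Falls of at least 2-fold on the log2 scale were measured for 19 of the 50 members and for 2.81% of all genes on the array. Mcm8 and Tyms were too dim to be tested, and Cdc6 and Gins1 were tested although their KO means lay under the limit of 7.15, because their WT means lay above it. The number that fell was 3 without WT replicate 1 (Mcm5, Mcm6 and Cdc7, with Cdc6 too dim to be tested there), 25 when KO replicate 2 was left out, and 0 without WT replicate 2, where 27 members were lower and 0 higher at an unadjusted p under 0.05 in limma (smallest adjusted p = 0.0844), beside 5.99% and 6.56% of all genes tested there. It was also 0 with no filter on dim probe sets, where 35 were lower and 0 higher at that unadjusted p, beside 8.89% and 8.05% of all genes. Each gene's call below carries these limits.

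**Figure D1:**
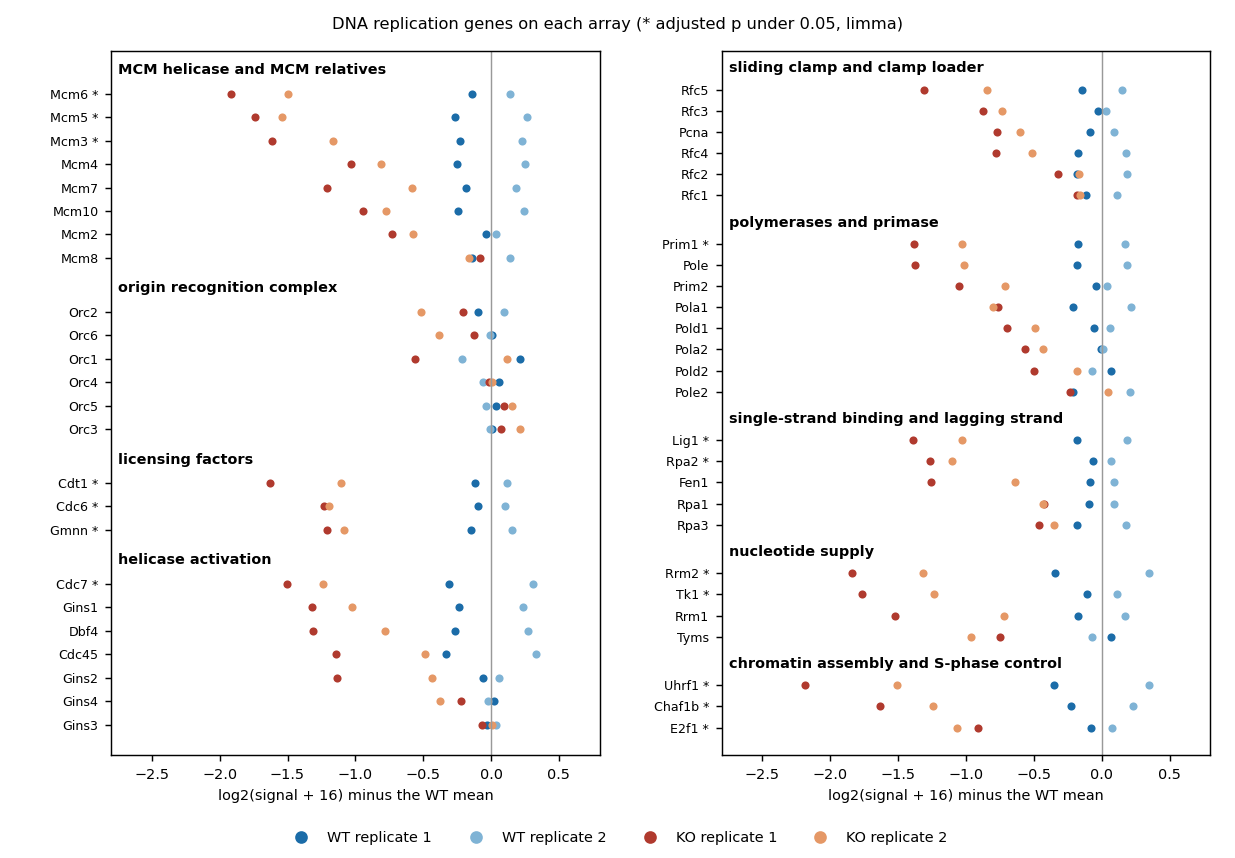
Each row is a replication gene, grouped by role, and each point is 1 array: the horizontal axis is log2(signal + 16) minus the mean of the WT arrays for that gene, blue for WT and red or orange for KO, with an asterisk for an adjusted p under 0.05 (limma). The genes with an asterisk have both KO points to the left of both WT points, while Orc3, Orc4, Orc5, Gins3, Pole2 and Mcm8 are among those near 0.

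**Figure D2:**
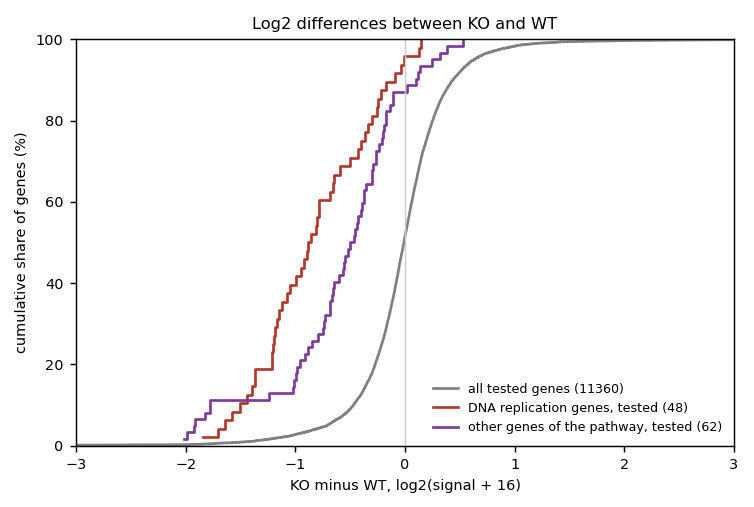
The vertical axis is the cumulative share of genes in percent and the horizontal axis the KO minus WT difference on the log2(signal + 16) scale, for all 11360 tested genes, the 48 tested replication genes and 62 other tested genes of the pathway. The replication genes lie left of all genes, with medians of -0.87 and -0.0099, and 21 genes fall outside the plotted range.

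The promoters of the members found in RefSeq (build GRCm38.p6) were searched for E2F-type sites, spelled TTTCGCGC, TTTCCCGC, TTTGGCGC or TTTGCCGC on either strand. The windows held 250 bases before and 50 after the start of transcription. Windows were held for 42 of the 50 members on the array. An E2F-type site was present in 16 of them (38.1%), beside 2.26% of all 32851 windows and 4.86% of the 9164 tested genes with a window. The sequences below are shown because they set strongly lowered genes beside genes that hardly differed: Mcm6, Mcm5, Cdc6 and Uhrf1 fell, Mcm7 and Pola1 lay lower without passing, and Orc3 and Gins3 were near 0. Capitals mark the matches, and each stretch holds 20 bases on either side, all before the start.
Mcm6, chr1:128359725-128359835, minus strand: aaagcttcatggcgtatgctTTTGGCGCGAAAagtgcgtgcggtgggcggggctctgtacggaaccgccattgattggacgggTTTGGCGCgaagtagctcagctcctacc
Mcm5, chr8:75109336-75109387, plus strand: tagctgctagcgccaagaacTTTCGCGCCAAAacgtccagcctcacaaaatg
Cdc6, chr11:98907993-98908040, plus strand: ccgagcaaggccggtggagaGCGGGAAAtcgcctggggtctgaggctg
Uhrf1, chr17:56304108-56304155, plus strand: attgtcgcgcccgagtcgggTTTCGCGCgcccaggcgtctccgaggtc
Mcm7, chr5:138172021-138172068, minus strand: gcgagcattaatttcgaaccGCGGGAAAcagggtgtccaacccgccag
Pola1, chrX:93632266-93632313, minus strand: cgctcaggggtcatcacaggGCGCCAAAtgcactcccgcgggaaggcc
Orc3, chr4:34614956-34615003, minus strand: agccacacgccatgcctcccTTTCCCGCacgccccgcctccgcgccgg
Gins3, chr8:95633498-95633545, plus strand: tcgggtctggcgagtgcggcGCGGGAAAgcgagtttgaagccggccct

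In Mcm6 and Mcm5 a pair of matches on opposite strands overlaps, and Mcm6 has another match 47 bases before the start. The median log2 difference was -0.85 for the members with a site and -0.84 for those without, and 7 of the 14 members that fell and had a window held one. A STAT-type site, spelled TTCNNNGAA, was present in 5 of the 42 members with a window (11.9%) and in 7.94% of tested genes, and the CCAAT box in 25 (59.5%) and in 42.5%. The median log2 difference was -1.21 for the 5 members with a STAT-type site and -0.81 for those without. With the CCAAT box it was -0.78, and without it -0.99. Of the 14 members that fell and had a window, 3 held a STAT-type site and 7 a CCAAT box. None of these contrasts was tested. The sites are matches of letters in a window and not measured binding.

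The MCM helicase, a ring of the 6 subunits Mcm2 to Mcm7 that unwinds DNA at the fork, held 3 of the falls. Mcm6 gave signals of 2571 and 3123 in WT and of 737 and 993 in KO, or 30.4% of the WT mean. It fell by 1.71 on the log2 scale (SE 0.19, limma adjusted p = 0.0184), with the smallest adjusted p among the members. Mcm5 stood at 1813 and 2616 in WT and at 639 and 739 in KO, a difference of -1.64 (SE 0.20, adjusted p = 0.0236). For both genes the KO and WT arrays were far apart and did not overlap. Mcm3 went from 1372 and 1889 to 514 and 708 (-1.39, SE 0.22, adjusted p = 0.0381). The other 3 subunits of the ring did not pass. Mcm4 stood at 51.7% of the WT mean (adjusted p = 0.0677), Mcm7 at 54.5% (0.0973) and Mcm2 at 63.2% (0.0689), each with both KO arrays below both WT arrays. Mcm10, a fork protein that is not part of the ring, stood at 52.0% (adjusted p = 0.107). Mcm8, a relative with a role in recombination, was dim and gave 115 and 142 in WT and 120 and 113 in KO, so its groups overlapped.

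The origin recognition complex, which marks the places where replication begins, was the role with the smallest differences. None of its 6 tested members passed, 0 lower and 0 higher with limma, and on their brightest probe sets none passed at an unadjusted p under 0.05 in either direction. The median difference was -0.11. Orc4 gave 763 and 702 in WT and 722 and 736 in KO, a difference of -0.0049 with a 95% interval from -0.35 to 0.34. Both Orc3, at 893 and 887 against 936 and 1034, and Orc5, at 726 and 688 against 758 and 790, lay slightly higher on the KO arrays, with intervals from -0.19 to 0.48 and from -0.21 to 0.47. These intervals do not reach the differences measured for Mcm5 or Mcm6. Orc2 had the largest difference of the complex, from 426 and 489 to 393 and 314 (-0.36, interval -0.80 to 0.08). A dimmer probe set of Orc2 went from 203 and 183 to 124 and 115 (-0.62, limma unadjusted p = 0.0196, adjusted p = 0.164). Orc6 stood at 83.5% of WT. Orc1, the subunit known for its cell cycle control, gave 210 and 152 in WT and 116 and 196 in KO on its brighter probe set, with overlapping groups. Its other probe set was too dim to be tested and read 90.8 and 117 in WT and 37.1 and 45.4 in KO.

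All 3 licensing factors fell. Cdt1, which brings the helicase to the origin, went from 1179 and 1392 in WT to 404 and 587 in KO (-1.37, SE 0.21, limma adjusted p = 0.0353). Cdc6, its partner ATPase, went from 198 and 230 to 81.9 and 84.2 (-1.21, SE 0.21, adjusted p = 0.0472), and the KO signals lay under the array medians. The KO mean of Cdc6 lay under the filter limit, so that it was tested only because its WT signal was high. Gmnn, which encodes geminin, the inhibitor of Cdt1 that blocks a further round of licensing, went from 601 and 746 to 281 and 307 (-1.15, SE 0.18, adjusted p = 0.0365). Cdt1 stood at 38.5% of its WT mean and Gmnn at 43.6%.

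Among the genes that activate the helicase, 1 of 7 fell. Cdc7, the kinase that phosphorylates the MCM ring, went from 728 and 1123 in WT to 308 and 374 in KO (-1.37, SE 0.23, limma adjusted p = 0.0442). Its regulatory subunit Dbf4 stood at 46.8% of the WT mean, with 405 and 596 against 189 and 280 (adjusted p = 0.0934). Cdc45 stood at 54.1% (adjusted p = 0.225), and the WT arrays differed for it, at 194 and 318. The GINS subunits, which act as a complex of 4 proteins, did not share a level of change. Gins1 gave 249 and 350 in WT and 109 and 137 in KO (41.1%, adjusted p = 0.0614), and Gins2 stood at 58.7% (adjusted p = 0.151). Gins4 stood at 81.0% and Gins3 at 97.5%, the latter with 152 and 160 against 148 and 156 and an interval from -0.51 to 0.45. The interval of Gins3 does not reach the -1.17 measured for Gins1, whose own interval was -1.74 to -0.60.

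The sliding clamp and its loader gave graded values, and none of the 6 genes passed with limma. At an unadjusted p under 0.05 in limma Pcna, Rfc3, Rfc4 and Rfc5 were lower, as were 10.8% of all tested genes. Pcna, the ring that tethers polymerases to DNA, was bright and stood at 6688 and 7552 in WT and at 4162 and 4687 in KO (-0.68, SE 0.13, adjusted p = 0.0543). Rfc5 had the largest difference, from 904 and 1116 to 396 and 553 (-1.08, SE 0.21, adjusted p = 0.0546), followed by Rfc3 at 55.3% and Rfc4 at 62.4% of WT. Rfc1, the large subunit of the loader, gave 897 and 1051 against 853 and 865 (88.2%, interval -0.53 to 0.18), and Rfc2 stood at 83.4% with overlapping groups.

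Of the polymerase and primase genes, 1 of 8 fell. Prim1, the catalytic subunit of the primase that lays down the RNA primer, went from 911 and 1163 in WT to 385 and 497 in KO (-1.21, SE 0.20, limma adjusted p = 0.0410). Pole, the catalytic subunit of the leading strand polymerase, had a like difference that did not pass, from 402 and 524 to 167 and 218 (-1.20, SE 0.22, adjusted p = 0.0505). Its accessory subunit Pole2 gave 295 and 401 against 291 and 355, so that its groups overlapped (92.8%, interval -0.60 to 0.41). Prim2 stood at 53.2% of WT, Pola1 at 56.1%, Pold1 at 65.7%, Pola2 at 70.1% and Pold2 at 79.1%, each with both KO arrays below both WT arrays.

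Genes that handle the exposed single strand and join Okazaki fragments were lower on both KO arrays throughout, and 2 of 5 fell. Lig1, the ligase that seals the fragments, went from 1109 and 1439 in WT to 472 and 609 in KO (-1.21, SE 0.20, limma adjusted p = 0.0407). Rpa2, the middle subunit of the single-strand binding complex RPA, went from 666 and 731 to 280 and 316 (-1.19, SE 0.16, adjusted p = 0.0310). Another probe set of Rpa2 gave 534 and 673 against 317 and 371 and did not pass (-0.78, adjusted p = 0.0843). The partners of Rpa2 differed less. Rpa1 stood at 73.9% of WT (adjusted p = 0.134) and Rpa3 at 74.4%, with 645 and 835 against 528 and 573 (adjusted p = 0.270). Fen1, the flap nuclease, stood at 52.3% (adjusted p = 0.0806) on an _x_at probe set, a type that can also bind related transcripts, and its other probe set passed (-1.15, adjusted p = 0.0488).

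Enzymes that supply deoxynucleotides were among the most lowered. Rrm2, the S phase subunit of ribonucleotide reductase, went from 1046 and 1697 in WT to 361 and 526 in KO (-1.58, SE 0.27, limma adjusted p = 0.0462). Tk1, the cytosolic thymidine kinase, went from 744 and 872 to 225 and 333 (-1.50, SE 0.22, adjusted p = 0.0324). Rrm1, the large subunit of the reductase, gave 1738 and 2212 against 671 and 1186 and did not pass (-1.12, SE 0.27, adjusted p = 0.0873). The WT and KO arrays of all 3 genes were apart, but KO replicate 2 was well above KO replicate 1 for Rrm1. Tyms, which makes thymidylate, was too dim to be tested and gave 135 and 121 in WT and 69.7 and 57.9 in KO.

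All 3 measured genes of chromatin assembly and S phase control fell. Uhrf1, which carries DNA methylation onto the new strand, went from 1003 and 1641 in WT to 270 and 442 in KO, 26.9% of the WT mean and the largest difference of the members (-1.84, SE 0.30, limma adjusted p = 0.0410). Chaf1b, a subunit of the CAF-1 complex that places histones behind the fork, went from 371 and 515 to 130 and 176 (-1.44, SE 0.24, adjusted p = 0.0423). E2f1, a transcription factor of the G1 to S step, went from 531 and 594 to 291 and 260 (-0.99, SE 0.17, adjusted p = 0.0440). The E2f1 call rests on its brighter probe set, since the other tested one gave 208 and 207 against 187 and 162 (-0.23, adjusted p = 0.568).

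Other probe sets of the same genes gave a further reading of the same RNA. Another tested probe set existed for 26 members, and the brightest of these was lower in KO for 25 members and higher for 1, Orc3. Of the 35 other tested probe sets, 34 were lower in KO and 9 passed, all lower. Over all tested genes 1.36% were called lower and 1.21% higher, and the median difference was -0.0099. For 10 of the 15 members that fell another probe set was tested. The brightest of these passed for 6 members, and at least 1 of them passed for 7. The brightest did not pass for Mcm3 (-0.90, limma adjusted p = 0.112), Cdc7 (-1.17, 0.0614), Rpa2 (-0.78, 0.0843) or E2f1 (-0.23, 0.568). The median gap between a member's brightest probe set and the next was 0.18 on the log2 scale and the widest was 0.76, for E2f1. Mcm5 and Rrm2 were represented by _x_at probe sets, and their other tested probe sets passed as well (-1.65, adjusted p = 0.0381 for Mcm5, and -1.49, adjusted p = 0.0472 for Rrm2). For Mcm2 the brightest probe set gave -0.65 and the other -1.26 (adjusted p = 0.0609).

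Beyond the members, 70 further genes of the pathway were listed by function, of which 66 were on the array and 62 were tested. That choice too was made with earlier results of these data known. In this list 8 fell, 0 rose and 54 missed the threshold, while an unadjusted p under 0.05 was reached by 39 lower and 2 higher genes (10.8% and 10.4% over all tested genes), and the median difference of the tested genes was -0.48. Among replisome accessory genes 2 of 22 fell: Exo1, an exonuclease, from 242 and 313 to 47.0 and 77.3 (-1.93, limma adjusted p = 0.0322), and Clspn, which encodes the fork checkpoint mediator claspin, from 327 and 444 to 81.5 and 114 (-1.82, adjusted p = 0.0308). Among replication-coupled chromatin genes 1 of 9 fell, the chromatin remodeller Hells (-1.78, adjusted p = 0.0356), and the maintenance methyltransferase gene Dnmt1, the partner of Uhrf1, was chosen after its values were seen and stood at -0.68 (adjusted p = 0.0515). Of 18 tested E2F, pocket protein and S phase kinase genes 5 fell. They were Dtl, a ubiquitin ligase subunit that removes Cdt1 in S phase, from 534 and 611 to 111 and 149 (-2.02, adjusted p = 0.0149), the APC inhibitor Fbxo5 (-1.24, adjusted p = 0.0331), cyclin A2, Ccna2 (-1.78, adjusted p = 0.0331), and, named after their values were seen, E2f2 (-1.92, adjusted p = 0.0352) and E2f8 (-1.99, adjusted p = 0.0421). Of the 8 calls 4 were of genes whose KO mean lay under the filter limit, Exo1, Clspn, E2f2 and E2f8, so that they were tested only because their WT signal was high. The calls of this list depended on the arrays kept. With either WT array left out most or all of them were lost, and such a fit holds 1 WT array.

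Nucleotide synthesis genes were the list with no call. Of 13 tested, 0 passed in either direction, and the median difference was -0.50. The largest differences were those of Dck, the deoxycytidine kinase, with 482 and 643 in WT against 340 and 310 in KO (-0.75, limma adjusted p = 0.0987), and of Dut, the dUTPase (-0.73, adjusted p = 0.163). Chosen after their values were seen, Rrm2b, the reductase subunit used outside S phase, lay higher on the KO arrays at 606 and 533 against 786 and 704 (0.38, adjusted p = 0.251), and Rbl2, the pocket protein p130 of resting cells, did so at 673 and 675 against 937 and 1030 (0.53, adjusted p = 0.108). Neither passed.

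The 2 arrays of each genotype also differed from each other. WT replicate 2 was above WT replicate 1 for 42 of the 50 members, with a median difference of 0.26 on the log2 scale, and KO replicate 2 was above KO replicate 1 for 42 of 50, with a median of 0.22. The higher array was replicate 2 in both genotypes for 37 members. Counts of 42 of 50 in each genotype already make most members coincide, and the numbering pairs no animals. No shared effect is therefore read from that count. Over all 18193 genes on the array, replicate 2 was the higher for 9281 in WT and 9249 in KO, and both medians were 0.0065. Against the WT mean the members' median was -0.99 on KO replicate 1 and -0.72 on KO replicate 2, so both KO glands were lower. The members' median was -0.97 without WT replicate 1, -0.67 without WT replicate 2, -0.72 without KO replicate 1 and -1.04 without KO replicate 2.

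Cell type markers moved beside the members. Of 23 general epithelial markers on the array, 12 had both KO arrays below both WT arrays and 4 had both above. Over all 18193 genes on the array, 4520 lay below in this way and 4236 above. The summed signal of the epithelial list was 59116 and 60995 in WT and 43125 and 66068 in KO. Bright genes weigh most in such a sum, and they differed in direction, with Epcam at -0.78 and Krt18 at 0.30 on the log2 scale. The epithelial median was -0.67 on KO replicate 1 and -0.14 on KO replicate 2, and the part of the epithelial share in the result was not tested. With each array centred on the epithelial markers, which moved the median of all tested genes to 0.28, the members' median was -0.58 and 4 members fell: Mcm5, Mcm6, Rrm2 and Uhrf1. Of 10 markers of B and T cells, which also divide, 7 had both KO arrays below both WT arrays (24.8% over all genes). Their summed signal was 2625 and 3276 in WT and 1611 and 1856 in KO, most of it from the pan-leukocyte gene Ptprc, and none was at 0. Only 2 of these 10 were bright enough to be tested, and their part in the result was not tested. Skeletal muscle markers moved the other way, higher on both KO arrays for 15 of 15, with summed signals of 2062 and 945 against 11443 and 7150, and their part was not tested either.

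**Figure D3:**
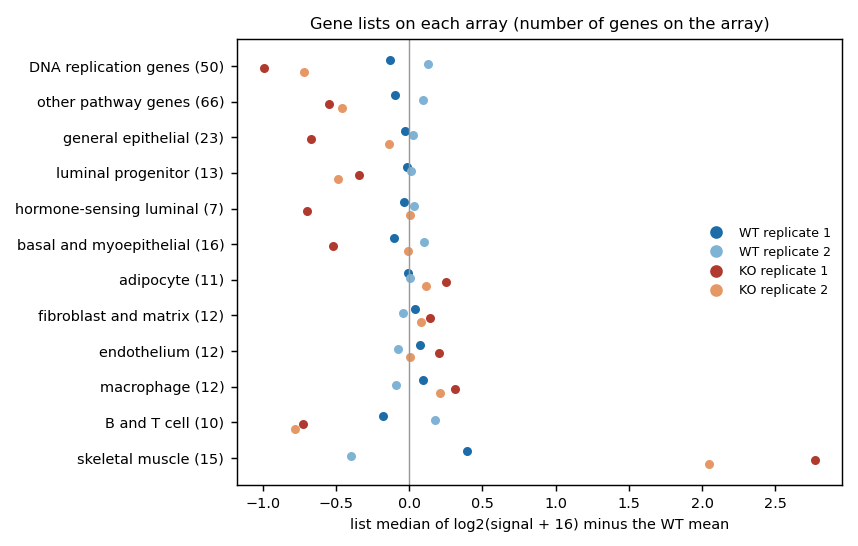
Each point is the median over a gene list on 1 array of log2(signal + 16) minus the WT mean (horizontal axis), with the number of genes on the array in brackets. The replication genes are at -0.99 and -0.72 on the KO arrays, the general epithelial markers at -0.67 and -0.14, and skeletal muscle lies above 2 on both.

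**Figure D4:**
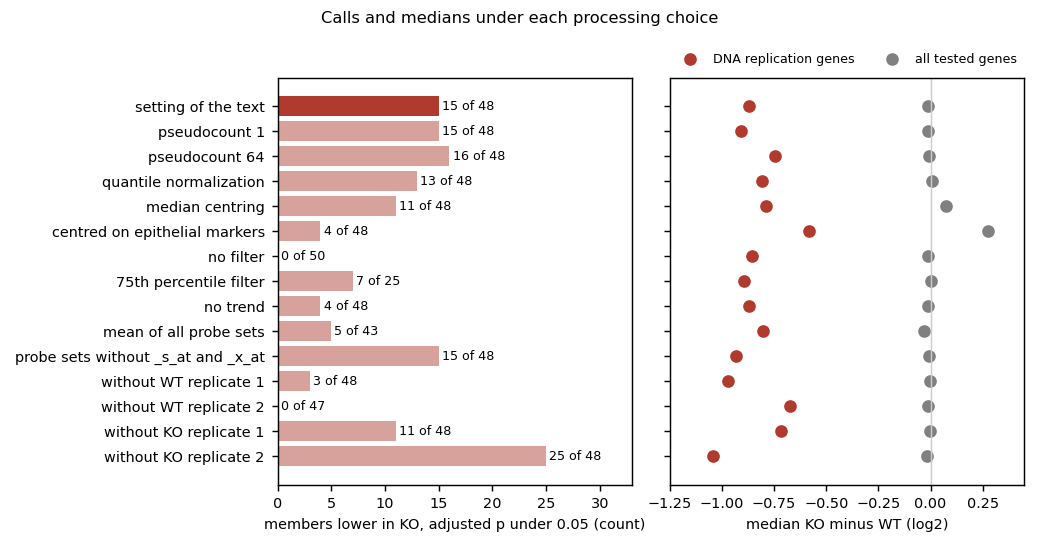
Left, the number of replication genes that fell (adjusted p under 0.05, limma) of those tested under each processing choice; right, the median KO minus WT difference on the log2 scale for replication genes (red) and all tested genes (grey). The count ranges from 0 to 25 while the members' median stays between -1.04 and -0.58.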

How the data were processed

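Mammary tissue RNA was measured on 4 Affymetrix arrays (2 WT, 2 KO), grouped by the genotype label. Replicates were numbered in the order of deposit, which pairs no animals. The authors deposited linear intensities of probe sets, and the submitters' processing notes name MAS5; its version and settings are not given in the sources used here. After leaving out the lowest and highest 2% the mean signal was 500 on each array, a scaling read from the values. The small number of arrays limits the precision.

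Of 45101 probe sets, 64 controls were left out. Of the rest 34945 had 1 symbol, 932 several and 9160 are unnamed here, and none was named from several symbols. Where several probe sets named a gene, the brightest by mean log2 value stands for it. The log2(signal + 16) values were fitted with limma 3.58.1 in R 4.3.3 (lmFit, eBayes with a variance trend) on the 22519 probe sets (11360 genes) at or above the median mean of 7.15, a signal of 126. With all arrays kept, the fit leaves 2 residual degrees of freedom. The variance trend over all tested probe sets adds a prior of 4.77 degrees of freedom. P-values, SEs and intervals thus rest on that prior more than on the spread between 2 mice per genotype. With an array left out, only the other genotype has a spread, so those calls rest still more on the prior. An exact two-sided permutation test of 2 against 2 arrays cannot go below 0.333 and was not used. The script was tested on simulated data.

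The members and lists were chosen with earlier results of these data known. Named genes were the members that fell, the largest and smallest difference in each role, and up to 3 called genes of each pathway list (the 2 largest differences where none was called). Further members are given by their values. Alternatives covered pseudocount, scaling, filter, variance trend, choice of probe set and leaving out an array.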

Additional observations from a re-analysis of the deposited data

How the results depend on the processing

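All 15 members that fell stayed lower in KO in every alternative in which they were tested. On the same probe set, another filter, a dropped trend or a left-out array could not turn these signs. For all 15 both KO arrays lay below both WT arrays. No member passed as higher in any alternative that kept all arrays. The number that fell was 4 when centred on epithelial markers and 0 with no filter. With no filter 35 were lower and 0 higher at an unadjusted p under 0.05 in limma, beside 8.89% and 8.05% of all genes. The number that fell was 7 of 25 tested with the 75th percentile filter, 4 when the variance trend was dropped and 5 when a gene's probe sets were averaged. It was 11 to 16 with the other alternatives that kept all arrays, and 0 to 25 with an array left out. The members' median moved to -0.75 with a pseudocount of 64 and to -0.58 when centred on epithelial markers, and lay between -1.04 and -0.67 when an array was left out. Other pathway genes that fell numbered 0 with no filter, 1 with the 75th percentile filter, 5 without the trend, 1 with averaged probe sets and 0 to 12 with an array left out. The cause of these moves was not tested, apart from the fewer genes tested under the stricter filter. Mcm5 kept its call in 12 of 14 alternatives and Mcm6 in 11, losing it with no filter and without WT replicate 2 (Mcm6 also with averaged probe sets), while E2f1 kept its call in 4 of 13. Signs turned for 7 members, none of which passed. Centred on epithelial markers, Orc1 was at 0.066, Orc4 at 0.28, Orc6 at 0.030, Gins3 at 0.25, Rfc1 at 0.11, Rfc2 at 0.038 and Pole2 at 0.19. Orc4 was at 0.022 and Gins3 at 0.048 after quantile normalization, and at 0.077 and 0.049 after median centring. With an array left out, values ran from -0.56 to 0.12 for Orc1, from -0.063 to 0.054 for Orc4, from -0.069 to 0.0037 for Gins3 and from -0.30 to 0.12 for Pole2. Dim members such as Mcm8 and Tyms have no detection call, which limits what their values show. No paired analysis was possible because the labels give no replicate numbers.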
